A study of Schizosaccharomyces pombe with 15 samples.

Results

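Scr1 binding was examined at 10 fission yeast genes for iron uptake and its control, which were fet4, frp1, shu1, str1, str2, str3, fip1, fio1, fep1 and php4, out of 5113 annotated protein-coding genes on chromosomes I, II and III. The members were chosen by name after Scr1 peaks near some of them were known from the same files, so the presence of a peak is a description and supports nothing by itself. A peak was assigned to a gene if its summit, the position of highest enrichment, lay in the annotated gene or within 2000 bp upstream of its start.

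Scr1 carried a TAP tag (for tandem affinity purification) in the laboratory strain and in Wilmar-P, an industrial strain that ferments molasses, and was recovered with an antibody to protein A. Both strains were first cultured in YES medium with 3% glucose and then moved to molasses or to fresh YES with 3% glucose. The 3 groups, with 2 biological replicates each, were laboratory S. pombe in molasses (labelled 972h- Scr1-TAP, with a genotype of h+ ura4-d18 leu1-32 ade6-m216 and scr1::TAP-KanMX6) and Wilmar-P in either molasses or glucose (h90 with scr1::TAP-KanMX6). All groups therefore carried the tag, the laboratory strain was not measured here in glucose, and no list from untagged cells was used here. Of the 15 samples in the series, only the 6 with Scr1 peak lists were used. The samples of RNA polymerase II and of input DNA were not analysed here.

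Fission yeast takes up iron by several routes. Frp1 reduces ferric iron at the cell surface, and the oxidase Fio1 with the permease Fip1 then imports it. Str1, Str2 and Str3 are transporters of the siderophore family, Shu1 binds heme at the cell surface, and Fet4 is a metal transporter named after the low-affinity iron transporter of budding yeast. Fep1 is a GATA-type repressor that shuts uptake genes when iron is plentiful, and Php4 joins the CCAAT-binding complex to shut iron-using genes when iron is scarce. Scr1 is a zinc finger repressor related to Mig1 of budding yeast and is known for its part in glucose repression.

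The promoter stretches around some of the sites are shown for Wilmar-P in molasses, with 75 bases on either side of the replicate 1 summit. The sites of str1, fep1 and php4, the farther str3 site and the weaker frp1 site are not shown. The stretches are from the RefSeq reference genome (ASM294v3 release), forward strand, 5′ to 3′. They are reference sequence, and Wilmar-P may differ from it. Capitals mark matches on either strand to GATA-type letters (AGATAA or TGATAA), to CCAAT, to Mig1-type letters (CCGGGG or the related CTGGGG, and further GCGGGG or the related GTGGGG) and to the Atf1-type letters TGACGT, so that TTATCA and TTATCT are GATA-type matches, ATTGG is a CCAAT match and ACGTCA is an Atf1-type match on the reverse strand.
fip1 and fio1, chrI:4234852-4235002: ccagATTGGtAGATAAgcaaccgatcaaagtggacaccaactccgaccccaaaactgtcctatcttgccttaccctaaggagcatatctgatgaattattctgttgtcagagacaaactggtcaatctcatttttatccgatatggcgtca
frp1, chrII:162411-162561: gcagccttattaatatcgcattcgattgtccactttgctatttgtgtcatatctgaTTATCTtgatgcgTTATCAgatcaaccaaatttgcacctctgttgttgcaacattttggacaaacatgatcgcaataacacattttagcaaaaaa
str3, nearer site, chrI:90827-90977: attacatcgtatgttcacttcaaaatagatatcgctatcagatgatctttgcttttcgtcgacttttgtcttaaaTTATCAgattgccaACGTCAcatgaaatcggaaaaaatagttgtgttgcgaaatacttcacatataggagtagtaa
shu1, nearer site, chrI:86830-86980: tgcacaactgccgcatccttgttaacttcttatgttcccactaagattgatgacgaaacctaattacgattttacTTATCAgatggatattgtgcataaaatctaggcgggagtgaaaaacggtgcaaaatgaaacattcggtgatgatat
shu1, farther site, chrI:87425-87575: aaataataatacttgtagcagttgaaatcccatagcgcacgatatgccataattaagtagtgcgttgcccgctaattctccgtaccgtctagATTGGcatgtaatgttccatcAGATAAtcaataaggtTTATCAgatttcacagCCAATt
fet4, chrII:330861-331011: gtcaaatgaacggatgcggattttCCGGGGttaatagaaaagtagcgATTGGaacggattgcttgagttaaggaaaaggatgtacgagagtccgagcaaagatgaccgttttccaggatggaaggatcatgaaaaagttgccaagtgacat

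At the nearer shu1 site and at the nearer str3 site the replicate 1 summit base was the first base of a GATA-type match. At frp1 a match ended next to the replicate 1 summit. The replicate 2 summits, at chrI:86890, chrI:90890 and chrII:162505, lay outside these matches. No letters of the marked kinds lay within 100 bp of the replicate 1 summit at str1, the farther str3 site or the weaker frp1 site.

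Read by the assignment rule alone, all 10 genes had a peak in both laboratory replicates and in both Wilmar-P molasses replicates, and 5 (frp1, str1, str3, fip1 and fio1) had one in both glucose replicates. Over all protein-coding genes the same rule called 69.3% in the laboratory group, 17.6% in Wilmar-P on molasses and 4.93% in Wilmar-P on glucose. None of the 10 genes was called in Wilmar-P and not in the laboratory strain on molasses (2.70% of all genes were), and 5 (fet4, shu1, str2, fep1 and php4) were called in molasses and not in glucose within Wilmar-P (12.8% of all genes were). The published study, which also corrected for irreproducible peaks across replicates, listed fet4, frp1, shu1, str1 and str3 as bound only in Wilmar-P on molasses. The calls here come from the longer lists of single replicates and are not the study's own.

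The laboratory calls were mostly of another kind. The laboratory lists held 4239 and 4479 peaks, of which 91.1% and 91.9% had the summit in coding sequence, whereas of the 961 and 1073 peaks of Wilmar-P on molasses 25.9% and 34.9% did, and of the 386 and 228 peaks on glucose 35.5% and 8.77% did. When only summits outside coding sequence were kept, 5 members were called in the laboratory strain (frp1, str1, fip1, fio1 and fep1; 5.40% of all genes), 9 in Wilmar-P on molasses (all but str2; 13.1%) and 5 in Wilmar-P on glucose (frp1, str1, str3, fip1 and fio1; 4.60%). On this reading fet4, shu1, str3 and php4 were called in Wilmar-P and not in the laboratory strain (8.53% of all genes), and fet4, shu1, fep1 and php4 in molasses and not in glucose (8.61%). With 2 lists in each group the smallest two-sided p of an exact permutation test is 0.333, so groups were not tested against each other.

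**Figure D1:**
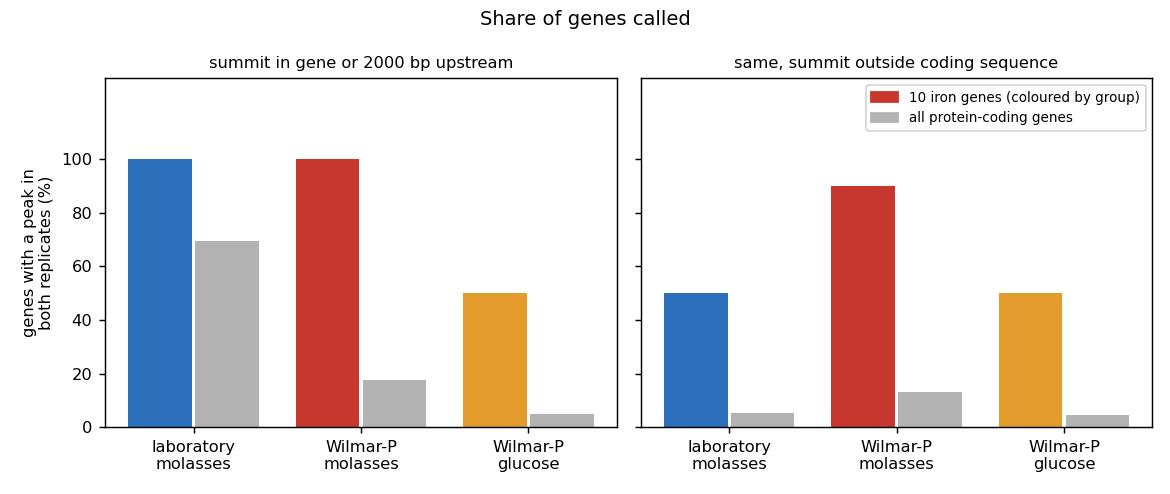
Percentage of genes with a peak in both replicates of each group (y axis), for the 10 iron genes (coloured bars) and for all 5113 protein-coding genes (grey bars), with all summits on the left and with summits outside coding sequence on the right. The laboratory bar for all genes stands at 69.3% on the left and at 5.40% on the right.

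**Figure D2:**
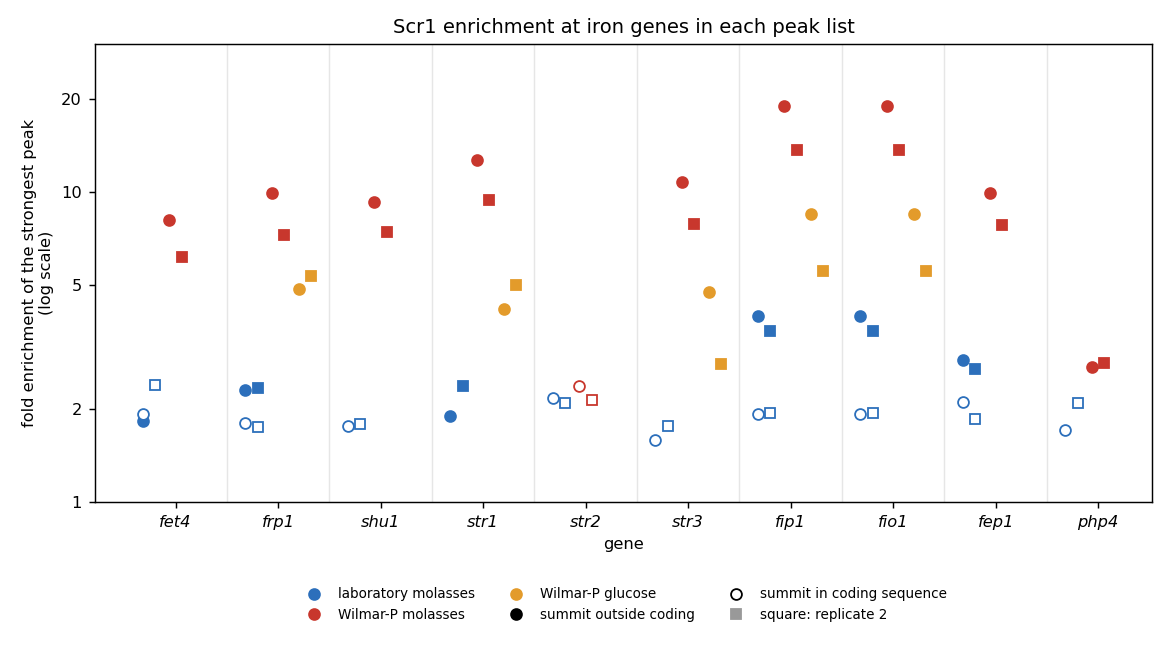
Fold enrichment of the strongest peak of each kind at each gene, with the summit outside or within coding sequence (y axis, log scale), in the 6 lists, with circles for replicate 1, squares for replicate 2, filled symbols for summits outside coding sequence and open symbols for summits in coding sequence; fip1 and fio1 share their promoter peak. Filled Wilmar-P molasses symbols run from 2.73 at php4 to 18.9 at fip1 and fio1, and str2 has open symbols only.

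Fold enrichment is the authors' ratio of immunoprecipitated to background signal at a peak. It was not scaled between lists and the depth of the libraries is unknown, so the rank of a peak by p within its own list is given as well for the upstream sites of the members. A gene without a peak had none above the significance limit of that list, and the smallest enrichment listed ranged from 1.23 to 1.94 over the 6 lists.

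The strongest site among the iron genes was the promoter shared by fip1 and fio1, which lie head to head on chromosome I (fip1 at chrI:4232998-4234768, reverse strand, and fio1 at chrI:4235072-4237874, forward strand). Fold enrichment there was 18.9 and 13.7 in Wilmar-P on molasses, 8.47 and 5.56 in Wilmar-P on glucose, and 3.97 and 3.56 in the laboratory strain on molasses. The 3 groups did not overlap, with Wilmar-P on molasses highest. Most regions were shifted in the same direction. Of the regions called in all 4 lists compared, 179 of 184 had a higher mean in molasses than in glucose. Likewise 329 of 408 had a higher mean in Wilmar-P than in the laboratory strain. These counts concern means, and the share of all regions without overlap was not computed. A lack of overlap, here and below, therefore only describes the printed values and cannot be called particular to iron genes. The peak ranked 95 and 115 for Wilmar-P on molasses, 50 and 78 on glucose and 141 and 151 for the laboratory strain, which is within the best 34.2% of every list. The summits of the 2 strains on molasses lay within 18 bp of each other and those of Wilmar-P in both media within 15 bp. The replicate 1 summit in molasses was 159 bp upstream of fip1 and 145 bp upstream of fio1, so the 2 genes are 1 binding site counted under 2 names.

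At frp1 (chrII:160357-162392, reverse strand), the ferric reductase gene, the promoter peak had a fold enrichment of 9.95 and 7.28 in Wilmar-P on molasses and of 4.87 and 5.35 on glucose, while the laboratory strain had 2.30 and 2.33. Again the 3 groups did not overlap in enrichment and followed the order seen at fip1 and fio1. The ranks did not follow that order, since the peak ranked 201 and 206 for Wilmar-P on molasses, 160 and 140 in the shorter lists of Wilmar-P on glucose and 294 and 295 in the longer laboratory lists. The molasses summits lay 94 and 113 bp upstream of the start in Wilmar-P and 112 and 111 bp upstream in the laboratory strain, and the glucose summits 171 and 107 bp upstream. A weaker peak lay 1151 and 1154 bp upstream of frp1 in Wilmar-P on molasses, with enrichments of 2.89 and 2.42 (ranks 630 and 624), and 1182 and 1186 bp upstream in the laboratory strain, with 1.42 and 1.35 (ranks 3776 and 4415). This second peak was in the annotated gene of the upstream neighbour pcl1, a vacuolar iron transporter gene, outside its coding sequence, and had no counterpart in glucose.

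The siderophore transporter gene str1 (chrII:2704657-2707648, forward strand) carried a broad peak in Wilmar-P on molasses. It was 1566 and 1541 bp wide in the replicates, against a median of 365 and 360 bp in the same lists, with a fold enrichment of 12.7 and 9.39 at summits 158 and 205 bp upstream of the start. In glucose the peak was 401 and 382 bp wide with enrichments of 4.19 and 5.02, and in the laboratory strain 231 and 232 bp wide with 1.89 and 2.37. The groups did not overlap, and the summits in all 6 lists lay between 142 and 247 bp upstream. The peak ranked 185 and 202 in Wilmar-P on molasses and 171 and 155 on glucose. The laboratory replicates differed in rank, 1584 in replicate 1 and 353 in replicate 2. The summits fell in a pair of annotated non-coding RNA genes, SPNCRNA.5780 and SPNCRNA.5781.

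At str3 (chrI:88201-90289, reverse strand), a gene of the same family whose product has also been described as a heme transporter, Wilmar-P on molasses had a peak of 10.8-fold and 7.86-fold enrichment with the summit 613 and 601 bp upstream (ranks 195 and 201). A second peak lay 1463 and 1469 bp upstream, with 6.17-fold and 5.28-fold enrichment (ranks 341 and 326). On glucose the replicates gave different positions. Replicate 1 had a peak 608 bp upstream with an enrichment of 4.74 (rank 153) and another 230 bp upstream with 2.84 (rank 295), while the only peak of replicate 2 was 124 bp upstream with 2.79 and ranked 224 of 228. The call in replicate 2 therefore rests on a weak peak near the start, whereas either peak of replicate 1 suffices for its call. The site at 608 bp was called in 1 of 2 replicates. The laboratory strain had summits in the coding sequence of str3, with enrichments of up to 1.58 and 1.76, and none upstream.

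The neighbouring heme gene shu1 (chrI:85566-86278, reverse strand) showed 2 separate sites in Wilmar-P on molasses. The farther one, 1222 and 1221 bp upstream, had a fold enrichment of 9.29 and 7.42 (ranks 251 and 242), and the nearer one, 627 and 612 bp upstream, had 5.10 and 4.21 (ranks 358 and 353). Neither had a peak in any glucose or laboratory list. The laboratory peaks of shu1 were at 296 and 316 bp inside the gene, in coding sequence, with enrichments of 1.76 and 1.78. Across the replicates the farther shu1 summit moved by 1 bp.

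The gene fet4 (chrII:327424-330329, reverse strand) had 1 upstream peak in Wilmar-P on molasses, of 8.09-fold and 6.15-fold enrichment at 607 and 621 bp before the start (ranks 258 and 256), inside the non-coding RNA gene SPNCRNA.4667. No glucose list held a peak at fet4. In the laboratory strain an upstream peak of 1.83-fold enrichment was called 641 bp before the start in replicate 1 alone, where it ranked 1147 of 4239, and both replicates had peaks in the coding sequence. A stronger site lay beyond the window, 2403 to 2420 bp upstream of fet4 and nearest to the start of mti2, with 11.0 and 8.61 in Wilmar-P and 3.65 and 3.58 in the laboratory strain on molasses.

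Of the 2 regulators, fep1 (chrI:442221-445721, forward strand) had its main site far from the start. This peak lay 1205 and 1181 bp upstream in Wilmar-P on molasses, with a fold enrichment of 9.91 and 7.81 (ranks 240 and 233), and 1199 and 1203 bp upstream in the laboratory strain, with 2.88 and 2.68 (ranks 214 and 245). The strains did not overlap there in enrichment, while their ranks did, and neither glucose list held a peak at fep1. A second, weaker site 110 and 127 bp before the start was called in Wilmar-P on molasses only, with 3.74 and 2.46 (ranks 506 and 628). A further site beyond the window, 2699 to 2721 bp upstream, had 3.98 and 3.04 in Wilmar-P and 2.33 and 2.04 in the laboratory strain.

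The other regulator, php4 (chrII:1915375-1916892, reverse strand), had a peak of 2.73-fold and 2.80-fold enrichment in Wilmar-P on molasses at 156 and 164 bp upstream. Among the 9 genes with an upstream site in these lists, its strongest site was the weakest. It ranked 705 of 961 and 580 of 1073. The laboratory lists had coding summits in php4, of 1.71-fold and 2.08-fold enrichment. Replicate 2 also had a summit 1417 bp upstream of php4, of 1.87-fold enrichment, in the coding sequence of SPBC16E9.02C. No laboratory summit lay upstream of php4 outside coding sequence, and glucose had no peak.

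No list held a summit outside coding sequence at str2 (chrIII:1435212-1442015, reverse strand). Its annotated transcript of 6804 bp runs over apn1, rpl6 and jmj4, and the 2 Wilmar-P molasses peaks counted under str2, of 2.37-fold and 2.13-fold enrichment, had their summits in the coding sequence of the ribosomal protein gene rpl6, 4314 and 4390 bp from the start of str2. The laboratory summits lay in the coding sequences of str2, rpl6, apn1, jmj4 and the upstream gene spt3, with enrichments between 1.50 and 2.16. The peaks in rpl6, apn1 and jmj4 were assigned to str2 because its annotated gene covers them, and those in spt3 because they lie in the upstream window. The laboratory peaks in the coding sequence of str2 itself were 732 and 1582 bp from the start in replicate 1 and 1024 and 1542 bp from it in replicate 2.

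**Figure D3:**
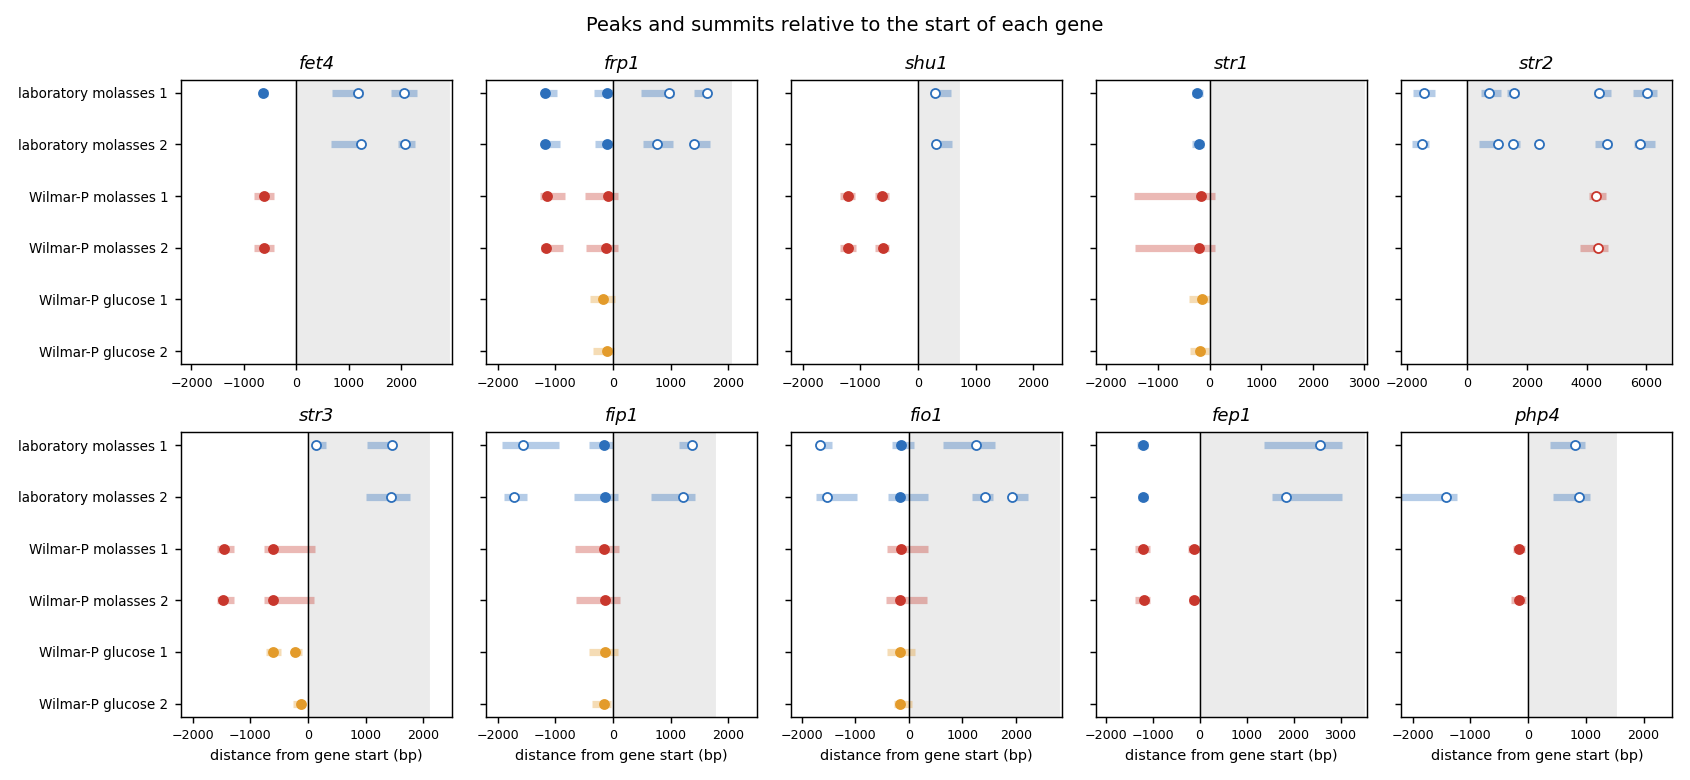
Peaks (bars) and their summits (circles, filled outside coding sequence and open within it) for the 10 genes in the 6 lists, against the distance in bp from the annotated gene start (x axis, negative upstream); the grey area is the gene. Upstream summits recur at similar distances in both Wilmar-P molasses replicates, while laboratory summits lie largely inside genes.

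The enrichments at shared regions were then compared with those of all regions called in the same 4 lists. Over 184 regions called in both media in Wilmar-P, the median log2 ratio of molasses to glucose was 1.56 (quartiles 1.09 and 1.94), and 179 regions were above 0. The ratio was 0.74 at frp1 (0.44 to 1.03 over the 4 pairings of replicates), 1.23 at fip1 and fio1 (0.69 to 1.77), 1.25 at str1 (0.90 to 1.60) and 1.34 at str3 (0.73 to 1.95). The iron sites were thus higher in molasses than in glucose, as were nearly all regions, and each lay below the median ratio, with 14.7% to 36.4% of the regions below them. Cells were split between the media, although the labels do not say that equal replicate numbers mark 1 culture. Paired by replicate number, the ratios in pairs 1 and 2 were 1.03 and 0.44 at frp1, 1.16 and 1.30 at fip1 and fio1, 1.60 and 0.90 at str1 and 1.19 and 1.49 at str3, beside medians over all regions of 1.74 and 1.33. The ratio was above 0 in both pairs at all 4 iron sites and in 170 of the 184 regions, and str3 in pair 2 was above the median of that pair. At str3 the summit of glucose replicate 2 lay 489 bp from that of molasses replicate 1 in the same region.

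Over 408 regions called in all 4 molasses lists, the median log2 ratio of Wilmar-P to the laboratory strain was 0.90, and 329 regions were above 0. Over the 203 of them with every summit outside coding sequence the median was 1.89. The ratio was 2.37 at str1 (1.98 to 2.75), 2.10 at fip1 and fio1 (1.79 to 2.41), 1.88 at frp1 (1.64 to 2.11), 1.66 at the main fep1 site (1.44 to 1.89) and 0.93 at the weaker frp1 site (0.76 to 1.10). Among the regions outside coding sequence, 13.8% to 76.8% were below these values. These 5 sites stood on both sides of the median of that group. The upstream sites of fet4, shu1, str3 and php4 are not among them, because they had no upstream peak in both laboratory lists, so no ratio was computed for them.

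**Figure D4:**
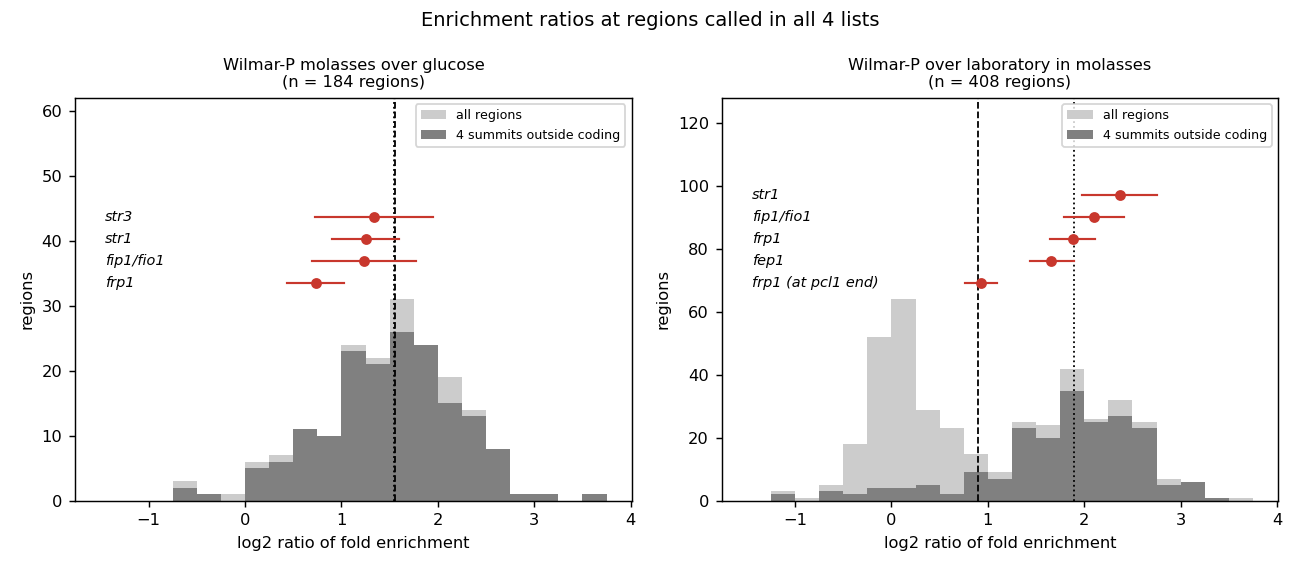
Histograms of the log2 ratio of fold enrichment (x axis) over regions called in all 4 lists of each comparison (y axis, number of regions; light grey, all regions; dark grey, every summit outside coding sequence), with dashed and dotted lines at the respective medians. Red points are the iron gene sites, with lines from the lowest to the highest of the 4 pairings of replicates; on the right they sit around the dotted line at 1.89.

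Sequence features were examined next. They were not used to choose the members, but the members were chosen as iron genes, and Fep1 is a GATA-type repressor of uptake genes. The presence of GATA-type letters is therefore not independent of the choice and is given as a description. Within 100 bp of the 12 Wilmar-P molasses summits outside coding sequence (replicate 1), GATA-type letters were present at 6 sites (frp1, both shu1 sites, the nearer str3 site, the fip1 and fio1 site and the nearer fep1 site). The share of all 712 such summits of the same list was 27.4%, and that of 5112 promoter windows of the same length, ending at the gene start, was 32.9%. CCAAT was present at 6 sites (fet4, the farther shu1 site, the fip1 and fio1 site, both fep1 sites and php4), against 35.4% of summits and 29.1% of promoters. Mig1-type letters were present at 2 sites (fet4 and the fip1 and fio1 site), against 17.8% of summits and 5.09% of promoters, and TGACGT at 1 site (str3, 16 bp from the summit), against 13.9% and 4.81%.

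A longer form of the GATA-type letters was searched after the sequences had been seen. ATCAGATAA or ATCTGATAA, each of which contains one of the shorter GATA-type words, occurred within 100 bp of 5 of the 12 sites, and in 13 of the 712 summit windows (1.83%) and 45 of the 5112 promoter windows (0.880%). Here and below the 712 include the 12 sites themselves. At frp1, at the nearer shu1 site and at the nearer str3 site the centre of the longer form was 2, 4 and 4 bp from the replicate 1 summit. The replicate 2 summits of these sites, at chrII:162505, chrI:86890 and chrI:90890, lay outside the matches. The farther shu1 site held 2 copies, 39 and 58 bp from the summit, and the fip1 and fio1 site held 1 at 87 bp. Over whole peaks the letters were in 7 of the 12 peaks, now also at str1 (2 copies, 155 and 291 bp from the summit) and at the farther str3 site, so that 6 of the 10 genes had them in a Wilmar-P molasses peak, against 23 of the 712 peaks of that list (3.23%). They were not in the peaks of fet4, fep1 or php4. A match is a description of the reference letters and was not tested as a binding site of any factor.

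Other genes of iron and copper handling were taken from a list of 24. With summits outside coding sequence, 6 of them were called in the laboratory strain, 8 in Wilmar-P on molasses and 1 in Wilmar-P on glucose, which is 25.0%, 33.3% and 4.17% of the list, beside the 5.40%, 13.1% and 4.60% of all genes given above. The siderophore synthesis genes sib1 and sib2, which are divergent, shared a peak of 9.70-fold and 7.86-fold enrichment in Wilmar-P and of 4.03-fold and 3.32-fold in the laboratory strain on molasses, with 5.21 in glucose replicate 1 alone. The aconitase gene aco1 had 21.6 and 12.5 in Wilmar-P and 5.28 and 4.02 in the laboratory strain on molasses, with 4.09 in glucose replicate 2 alone. The corepressor gene ssn6, whose product works with Tup11 and Tup12, had 21.7 and 14.0 in Wilmar-P and 5.26 and 4.97 in the laboratory strain. It was the only gene of the list called in both glucose replicates, at 4.37 and 5.78, but the summits lay at −131 bp in replicate 1 and at −1848 bp in replicate 2 relative to its start. The glutamate synthase gene glt1 had 12.0 and 8.80 in Wilmar-P on molasses, with 2.53 in laboratory replicate 1 alone. On molasses in Wilmar-P the vacuolar transporter gene abc3 had 4.20 and 3.52 and the copper transporter gene ctr4 had 3.38 and 3.09, and neither had a peak outside coding sequence in another list. The gene pcl1 was called through the peak described under frp1, and php3, of the CCAAT-binding complex, was called in the laboratory strain alone, with 1.93 and 1.99 at summits 157 and 184 bp inside the gene.

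The calls depended on the length of the lists. With every list reduced to its 228 best peaks by p, the length of the shortest, frp1, str1, str3, fip1 and fio1 were called in both Wilmar-P media, no member was called in molasses and not in glucose (1.39% of all genes were), and fip1 and fio1 alone were called in the laboratory strain. The str3 call on glucose then joined summits at different places, 608 bp upstream in replicate 1 (rank 153) and 124 bp upstream in replicate 2 (rank 224). At this length frp1, str1 and str3 were called in Wilmar-P and not in the laboratory strain (1.96% of all genes were). At that length the shares of all genes were 4.05% for the laboratory strain, 5.26% for Wilmar-P on molasses and 4.52% on glucose.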

How the data were processed

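Scr1 peak lists of 6 ChIP-seq libraries were analysed, grouped and numbered as in the labels. Peaks were called by the authors with MACS2, with input DNA as the background, and 1 list per replicate was deposited. For its binding sites the published study also applied a correction for irreproducible peaks across replicates. The lists used here are per replicate and are not those final calls. The submitters' processing notes name Bowtie2 2.3.1 and MACS2 2.1.1. Fold enrichment is the authors' ratio. Significance was deposited as −log10 p and −log10 q. The lists end near a −log10 q of 2.00 to 2.43. They hold no read numbers, so depth is unknown.

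The lists use ASM294v2. Genes and sequence came from the RefSeq release ASM294v3 of the same assembly, and 40 peaks on sequences other than chromosomes I, II and III were left out. A gene was called in a group if both replicates had a summit in the gene or within 2000 bp upstream. All 10 members were named, with the genes nearest to their summits and those of a list of 24 pathway genes called outside coding sequence. Regions shared by lists overlapped by at least 1 bp, and log2 ratios were taken between means of log2 enrichment. The assignment was tested on simulated peaks. The alternatives changed the window, the place of the summit, the peak filters, the list length and the replicates. The members and lists were chosen with earlier results of these data known. Python 3.11.15 and matplotlib 3.10.9 were used.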

Additional observations from a re-analysis of the deposited data

How the results depend on the processing

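Counts of members are given with the share of all protein-coding genes called under the same setting. The number called in the laboratory strain, 10, was 6 with upstream summits only (36.8%), 5 with summits outside coding sequence (5.40%), 3 with a fold enrichment of at least 2.5 (4.30%) and 2 with lists of equal length (4.05%). The number called in Wilmar-P on molasses, 10, was 5 with lists of equal length (5.26%). The number called in Wilmar-P and not in the laboratory strain, 0, was 4 with upstream summits only (6.85%), 4 with summits outside coding sequence (8.53%), 1 with a −log10 q of at least 5 (3.91%), 6 with a fold enrichment of at least 2.5 (8.16%) and 3 with lists of equal length (1.96%). The number called in molasses and not in glucose, 5, was 3 with 500 bp upstream (8.27%) and 0 with lists of equal length (1.39%). The cause was not tested beyond what each setting removes. The other 52 values of these counts stayed within 1.5 times the value reported, 14 of them with 1 replicate of a group left out. A call needs both replicates, so leaving 1 out can only keep or add calls. All 10 members were already called in both molasses groups. Of these 14 values, therefore, only those with a glucose replicate left out could have changed, and the rest say nothing of stability. With summits outside coding sequence, 19 mean enrichments of single genes could be computed. They equal the values reported, because the strongest peak already lay outside coding sequence, so they say nothing of stability either. Enrichments of 1 replicate alone are the values printed for each list and say nothing of stability. With the replicate block, added after the data were seen, the mean log2 ratios of molasses to glucose equal those without it by construction, 0.74 at frp1, 1.23 at fip1 and fio1, 1.25 at str1 and 1.34 at str3. Depth is unknown, so a missing peak says only that none passed the limit of that list.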
